A study of Mus musculus with 4 samples.

Results

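Cycling mesenchymal cells were defined here as single cells of the fetal mouse penis that expressed genes of late S phase, G2 and mitosis together with the collagen gene *Col1a1*. A cell was a member when it held 1000 to 10000 UMIs (unique molecular identifiers, each counting 1 captured mRNA molecule), with at most 25% of them mitochondrial and at most 25% from the hemoglobin genes, when at least 3 of the 6 genes *Mki67*, *Top2a*, *Cdk1*, *Birc5*, *Cenpf* and *Ube2c* and *Col1a1* were detected, and when none of *Epcam*, *Cdh5*, *Sox10* and *Csf1r* was. Of 47040 barcodes, 33704 passed the limits on UMIs, mitochondrial and hemoglobin genes, 30121 of these were mesenchymal by the *Col1a1* and exclusion genes, and 2819 were cycling. The comparison cells were the 23123 mesenchymal cells in which none of the 6 genes was detected, and 4179 cells with 1 or 2 of the genes lay in between.

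The penises were collected from male embryos at embryonic day 16.5, when the urethra is closing, and the study asked how the loss of *Nr5a1*-lineage cells changes the other cells. The 2 control samples (DTA-) carried the Cre-dependent diphtheria toxin allele at the *Rosa26* locus (f/+) without *Nr5a1-Cre*, and the 2 ablated samples (DTA+) carried the same allele with *Nr5a1-Cre* (Tg/+), so that cells which had expressed *Nr5a1* made the toxin. The study's methods also place a Cre-dependent *tdTomato* allele at *Rosa26* (*Rosa-LSL-tdTomato*, +/f) in all mice used for single-cell sequencing, although the control genotype that the study gives for this experiment does not list it. The transgene acts in every *Nr5a1*-expressing tissue, and the study's methods and text describe reduced testes and missing adrenal glands in these embryos, so a change in the penis cannot be told apart from a change in circulating hormones. The study's methods call the 2 libraries of a group biological replicates, and neither they nor the labels say whether a library holds 1 animal or a pool.

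A dividing cell first licenses its replication origins, then copies its DNA in S phase, and then makes the cyclins, kinases, kinesins and kinetochore proteins of G2 and mitosis, most of which are destroyed as the cell divides. Transcripts of the last group are abundant for a short part of the cycle and nearly absent from resting cells, which makes them usual markers of dividing cells in single-cell data. In the fetal penis the mesenchyme of the glans and prepuce grows around the urethral epithelium while the urethra closes.

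The files held 12580 and 11607 barcodes and 73577028 and 53654435 UMIs in the DTA- samples, and 11510 and 11343 barcodes and 50794318 and 50779551 UMIs in the DTA+ samples. The first DTA- library stood apart in depth: 1343 of its barcodes held more than 10000 UMIs, against 549, 509 and 488 in the other samples in the same order, and 60.4% of its barcodes passed the limits, against 72.7%, 72.1% and 82.6%. The members numbered 772 and 958 in the DTA- samples and 566 and 523 in the DTA+ samples, with a median of 6649.5, 5807, 6247 and 5895 UMIs. The comparison cells were shallower, with a median of 4844, 4046, 3503 and 3546 UMIs, and their depth also differed between the groups. No member barcode occurred in more than 1 library. Scrublet's automatic threshold called 1 cell in the first DTA- sample and 0 in the others, so it did not work here. Of the members, 26.6% and 23.1% in the DTA- samples and 29.3% and 33.3% in the DTA+ samples were among the cells with the highest doublet scores, against 5.89% to 6.47% of the comparison cells.

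The label was checked against markers that the rule did not use. The collagens *Col1a2* and *Col3a1* of the mesenchyme stood at 1830, 2630, 3724 and 2203 CPM and at 2559, 4643, 4366 and 2933 CPM (UMI counts of the gene scaled to the total UMIs of the members) in the DTA- and then the DTA+ samples. *Twist1*, a mesenchymal transcription factor, stood at 720, 733, 1133 and 1002 CPM. *Epcam*, *Cdh5*, *Sox10* and *Csf1r* were at 0 by the rule, and the other markers of those cell types were low. The 15 epithelial markers summed to 34.4 to 63.9 CPM, the 10 endothelial markers to 69.8 to 86.3 CPM, the 10 macrophage markers to 8.02 to 18.2 CPM and the 9 skeletal muscle markers to 6.30 to 12.4 CPM, with *Krt8*, *Ramp2*, *Fcer1g* and *Des* the most abundant of each list. The 9 glial markers summed to 29.1 to 43.4 CPM, the 8 pericyte markers, led by *Ndufa4l2*, to 188 to 273 CPM, and the 9 smooth muscle markers to 116 to 167 CPM. The 8 mast cell markers, led by *Cma1*, differed most between libraries, at 40.8, 146, 28.6 and 252 CPM. Red cell genes were higher: the 9 erythroid genes, led by *Hbb-bs*, summed to 4855, 4336, 2615 and 959 CPM in members and to 3983, 3176, 2171 and 952 CPM in the comparison cells. *Col1a1* alone did not separate mesenchyme from other cells, since it was also detected in 39.7% to 64.1% of cells with *Epcam* and in 32.6% to 40.4% of cells with *Csf1r* (median depths of 4316.5 to 6281 and 5463.5 to 6105 UMIs), against 89.8% to 93.4% of all cells within the limits. Of the members, 2737 lay in clusters of mesenchymal cells, and the others lay in clusters led by genes of mast cells and granulocytes, pericytes or glia (described with the clusters). The cluster led by mast cell and granulocyte genes was also enriched in 11 epithelial markers, among them *Krt5* and *Cdh1*.

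Cycling cells made up a smaller share of the mesenchyme in both ablated penises than in both controls. The share was 11.3% (95% interval 10.6% to 12.1%) and 12.5% (11.8% to 13.3%) in the DTA- samples, and 7.81% (7.20% to 8.45%) and 6.23% (5.72% to 6.77%) in the DTA+ samples. These exact binomial intervals cover counting error only. The means were 11.9% ± 0.824 (SD, n = 2) and 7.02% ± 1.11 (SD, n = 2), a difference of -4.90 percentage points. The groups did not overlap, and an exact two-sided permutation test gave p = 0.333, the smallest value that 2 against 2 samples allow. The share of cells with all 6 genes differed in the same direction, at 5.05% and 5.96% against 3.81% and 2.79%. Cells just inside the limit, with 3 of the 6 genes, were 2.03%, 2.02%, 1.32% and 1.23% of the mesenchyme, and cells just outside it, with 2 genes, were 3.48%, 2.86%, 2.07% and 1.58%.

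**Figure D1:**
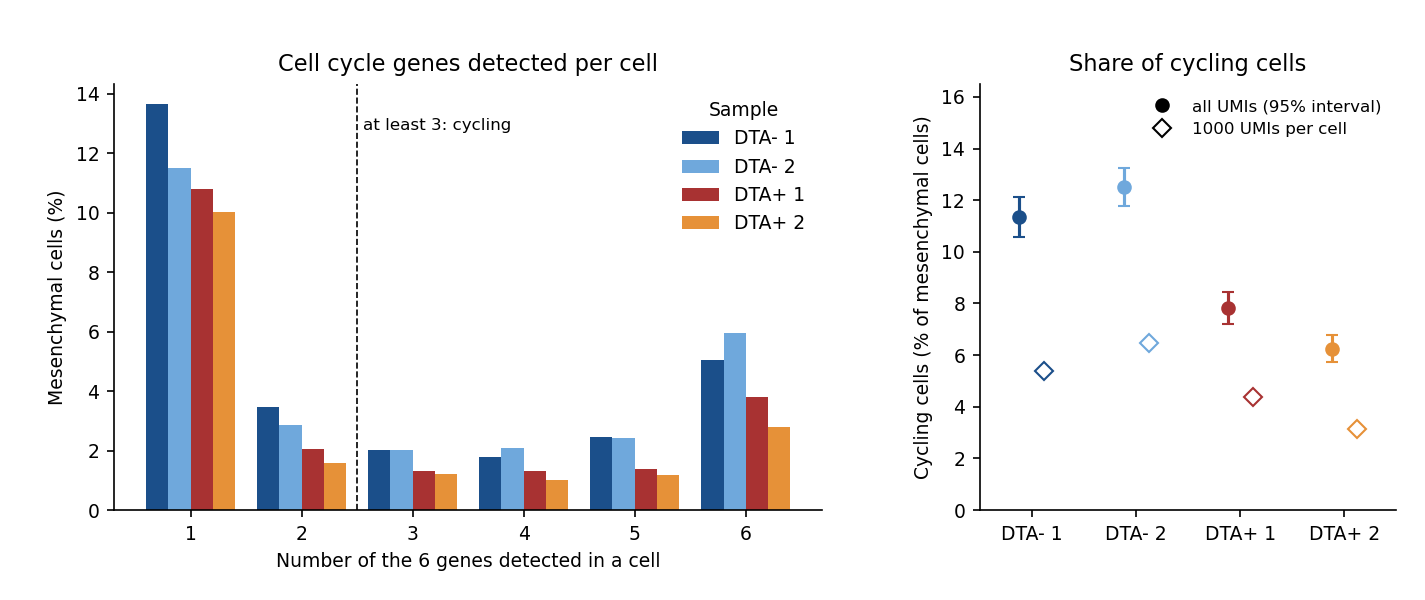
Left, percent of mesenchymal cells in which 1 to 6 of the 6 cell cycle genes were detected, as 1 bar for each sample, with a dashed line at the limit for cycling cells. Right, percent of mesenchymal cells that were cycling, with exact 95% binomial intervals (filled circles), and the percent found after each cell was reduced to 1000 UMIs (open diamonds). Both DTA- samples lay above both DTA+ samples in either measure.

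Sequencing depth moved with the share. When each cell was reduced at random to 1000 UMIs, at least 3 of the 6 genes were found in 5.37% and 6.46% of mesenchymal cells in the DTA- samples. In the DTA+ samples they were found in 4.39% and 3.15%, a difference of -2.15 points and a ratio of 1.57, against a ratio of 1.698 with all UMIs. The mesenchymal cells were still those defined by *Col1a1* and the exclusion genes with all UMIs. The part of depth in the remaining difference was not tested. Within bins of depth the order of the samples was not uniform. In cells of 2000 to 3000 UMIs the cycling share was 6.64% and 5.16% against 1.83% and 1.17%. In cells of 6500 to 10000 UMIs it was 23.6% and 33.2% against 31.3% and 22%, and the groups overlapped in each of the bins from 4000 UMIs upward. Members held more UMIs than comparison cells in every sample, so depth and state cannot be told apart within these bins.

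The share of cycling cells that leaned to S phase did not separate the genotypes. After reduction to 1000 UMIs, members held a mean of 12.1, 13.4, 14.4 and 13.7 UMIs of a list of 46 G2 and mitosis genes, and 4.46, 4.37, 4.66 and 4.48 UMIs of a list of 43 S phase genes (the 6 rule genes belong to neither list). Both means were higher in both DTA+ samples than in both DTA- samples, by 1.29 and 0.159 UMIs (exact permutation test, p = 0.333 for each). Comparison cells held 1.14 to 1.26 and 0.893 to 1.03 UMIs of the lists. More S phase than G2 and mitosis UMIs were found in 19.7% and 17.2% of members in the DTA- samples and in 17.3% and 18.9% in the DTA+ samples, a difference of -0.33 points (exact permutation test, p = 1.00). The groups overlapped, and 19.3% to 21.7% of members lay within 2 UMIs of the limit between the phases. That G2 and mitosis genes prevailed follows in part from the rule, which is built on such genes. Members with 3 of the 6 genes leaned to S phase in 39.1%, 35.5%, 33.3% and 38.8%, and members with all 6 genes in 5.81%, 6.35%, 6.16% and 6.84%. The rule also left out cells with S phase transcripts alone. At least 5 UMIs of the S phase list were found in 3.89% and 3.67% of the mesenchymal cells outside the members in the DTA- samples and in 2.17% and 2.10% in the DTA+ samples. Over all mesenchymal cells the shares were 8.28% and 8.55% against 5.48% and 4.72%, so that a count by S phase genes gave the same order of the groups as the rule.

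Among genes outside the rule, 260 of 3225 (8.06%) with a mean of at least 50 CPM in members were at least 2-fold higher in members than in comparison cells in every sample, and 7 were at least 2-fold lower (ratios on the CPM + 10 scale). These ratios describe cells that were chosen by their expression and carry no test. The rule genes themselves stood at 1205, 1407, 1495 and 1325 CPM for *Top2a*, the topoisomerase that untangles sister chromatids, and at 455, 643, 741 and 633 CPM for *Mki67*, which coats mitotic chromosomes. Histone genes, made for the packing of new DNA, led the list. The linker histone gene *Hist1h1b* stood at 1010, 1569, 1606 and 1340 CPM in members and at 12.2, 11.1, 16.2 and 14.3 CPM in comparison cells, although reads of such near-identical histone genes can be assigned to the wrong copy. *Hist1h2ap* and *Hist1h2ae* were also among the first 5. *Pclaf*, a partner of the replication clamp PCNA, stood at 936, 853, 875 and 805 CPM against 6.99 to 10.4 CPM. *Prc1*, which bundles the microtubules of the spindle midzone, stood at 428, 603, 659 and 543 CPM against 3.86 to 5.61 CPM. The other leading genes were *Cdca8*, *Nusap1*, *Cks2*, *Tpx2*, *Hmmr*, *Cdca3*, *Cenpa*, *Spc24*, *Esco2* and *Cdc20*, with log2 ratios of at least 4.18 in every sample. Of these, *Cdca8*, *Nusap1*, *Tpx2*, *Cenpa* and *Spc24* belong to the list of spindle and kinetochore genes used below.

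Promoters of these genes are known for CCAAT boxes, which bind NF-Y, and for the cell cycle homology region TTTGAA, through which cell cycle genes are held silent in resting cells. RefSeq promoter sequences (GRCm38.p6) were matched by symbol for 15 of 21 genes (the 6 rule genes and the 15 leading genes), and the 250 bases before the start were searched. CCAAT on either strand occurred in 13 of these 15 and in 33.8% of all 32851 promoters, TTTGAA in 6 of 15 and in 16.0%, and the E2F letters TTTCCCGC in 0 of 15 and in 0.895%. A gene was counted when any of its promoters held the letters, whereas the percentages are of single promoters. The matches are letters in a window and were not tested for binding. The following 4 sequences of rule genes, each upstream of the start and written 5′ to 3′ on the strand of the gene, hold both motifs. Capitals mark CCAAT or its reverse complement ATTGG, and TTTGAA or its reverse complement TTCAAA; they are *Mki67* (chr7:135716380-135716577, minus strand), *Top2a* (chr11:99024190-99024426, minus strand), *Cdk1* (chr10:69352913-69353130, minus strand) and *Ube2c* (chr2:164769691-164769928, plus strand).
Mki67: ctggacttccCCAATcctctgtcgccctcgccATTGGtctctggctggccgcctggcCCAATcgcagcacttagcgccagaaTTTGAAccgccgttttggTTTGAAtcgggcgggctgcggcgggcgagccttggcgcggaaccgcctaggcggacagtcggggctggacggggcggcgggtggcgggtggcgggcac
Top2a: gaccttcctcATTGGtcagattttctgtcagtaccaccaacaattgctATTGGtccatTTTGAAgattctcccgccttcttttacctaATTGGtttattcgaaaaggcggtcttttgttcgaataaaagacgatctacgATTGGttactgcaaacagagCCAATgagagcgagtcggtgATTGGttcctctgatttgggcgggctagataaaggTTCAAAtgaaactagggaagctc
Cdk1: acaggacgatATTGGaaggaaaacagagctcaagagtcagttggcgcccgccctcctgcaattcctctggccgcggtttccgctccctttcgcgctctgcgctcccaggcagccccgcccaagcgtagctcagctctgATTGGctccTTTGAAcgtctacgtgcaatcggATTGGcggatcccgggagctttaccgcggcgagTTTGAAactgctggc
Ube2c: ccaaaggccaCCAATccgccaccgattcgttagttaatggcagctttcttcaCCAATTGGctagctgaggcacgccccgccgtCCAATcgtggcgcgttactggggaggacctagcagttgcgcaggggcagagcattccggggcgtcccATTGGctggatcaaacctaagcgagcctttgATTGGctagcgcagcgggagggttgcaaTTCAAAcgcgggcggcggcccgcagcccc
In *Cdk1*, the kinase that drives entry into mitosis, TTTGAA lay 71 and 15 bases before the start and CCAAT boxes at 208, 80 and 48 bases. In *Ube2c*, the ubiquitin-conjugating enzyme of mitotic exit, CCAAT boxes overlapped on opposite strands at 186 and 183 bases, and TTTGAA lay at 29 bases.

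By stage of the cycle, the contrast with comparison cells was smallest for origin licensing and largest for spindle genes. The 11 genes of origin licensing summed to 696, 611, 665 and 674 CPM in members and 244, 217, 178 and 179 CPM in comparison cells. Its *Mcm2* to *Mcm7* genes encode the replicative helicase, and *Mcm3* stood at 103, 96.9, 94.5 and 103 CPM against 35.0, 30.8, 23.1 and 21.0 CPM. The 16 genes of DNA synthesis summed to 2369, 2179, 2225 and 2210 CPM against 411, 357, 335 and 344 CPM. Among them, the ribonucleotide reductase subunit *Rrm2* and the thymidine kinase *Tk1* had log2 ratios of 3.48 to 3.73 and 3.73 to 3.85, whereas *Rfc2*, a clamp loader subunit, had ratios of 0.98 to 1.28. The 10 genes of G2 entry, among them the mitotic cyclins *Ccnb1* and *Ccnb2*, summed to 977, 992, 1129 and 1080 CPM against 33.5, 45.8, 29.99 and 31.1 CPM. The 19 spindle and kinetochore genes measured of 20 summed to 3603, 3867, 4312 and 3921 CPM against 49.5, 52.2, 56.3 and 56.0 CPM. Mitotic exit genes summed to 1802, 2120, 2246 and 2109 CPM against 79.1, 82.2, 72.7 and 81.8 CPM. In this list *Pttg1*, securin, differed little, at 62.6, 52.8, 47.5 and 54.9 CPM against 47.0, 46.7, 42.8 and 48.7 CPM.

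**Figure D2:**
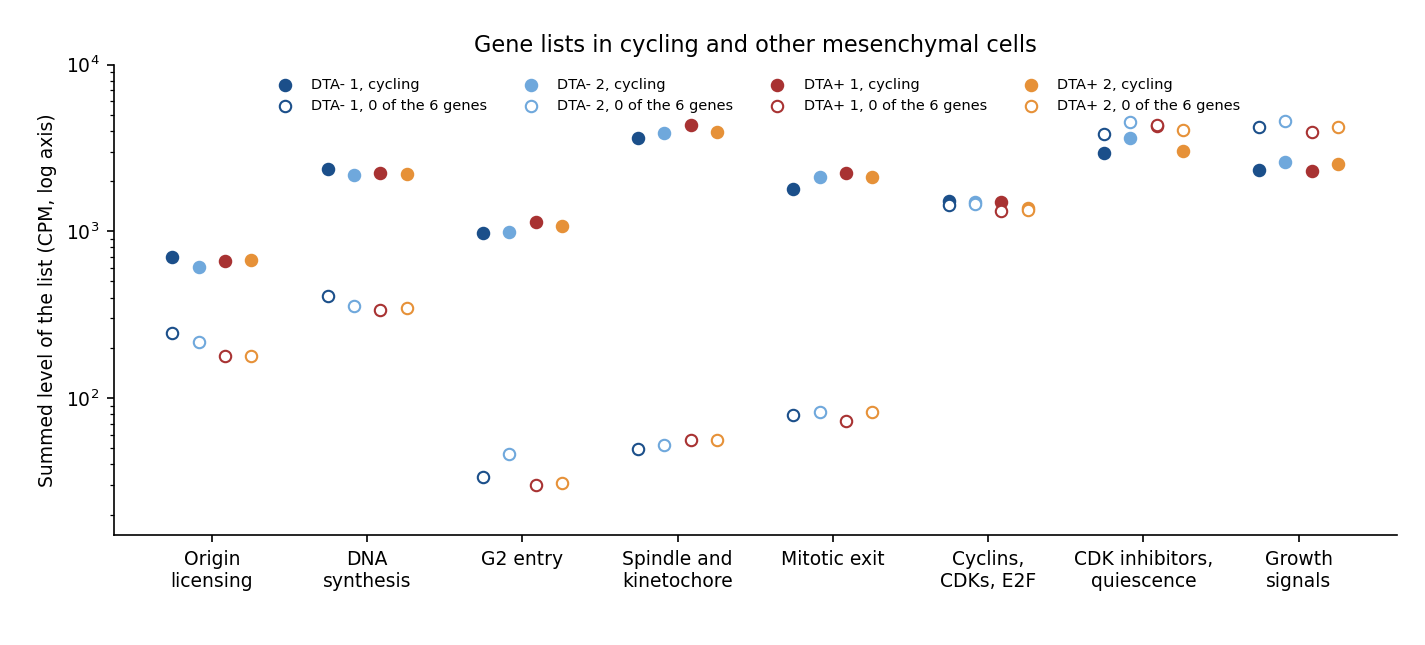
Summed level (CPM of the UMIs of a cell class, log axis) of 8 gene lists in cycling cells (filled) and in mesenchymal cells with 0 of the 6 genes (open), as 1 point for each sample. The spindle list lay at 3603 to 4312 CPM against 49.5 to 56.3 CPM, while the growth signal list was lower in cycling cells of every sample.

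Regulators of cycle entry did not follow this pattern as a group. The 21 genes of cyclins, CDKs and E2F factors summed to 1524, 1494, 1500 and 1378 CPM in members and 1438, 1461, 1323 and 1340 CPM in comparison cells. Within the list, the G1 to S cyclins *Ccne1* and *Ccne2* were higher in members (log2 ratios of 1.45 to 1.89 and 2.10 to 2.24), and so were the late repressors *E2f7* and *E2f8* (2.31 to 2.70 and 2.42 to 2.77), while the D-type cyclin *Ccnd2* was lower (-1.17 to -0.90). Of the CDK inhibitors, *Cdkn2c* (129, 123, 147 and 138 CPM against 11.3 to 25.4 CPM) and *Cdkn2d* (174, 181, 188 and 173 CPM against 23.4 to 30.1 CPM) were higher in members. The imprinted inhibitor *Cdkn1c* was lower in members of every sample, at 799, 850, 629 and 687 CPM against 1475, 1229, 1086 and 1339 CPM. The 22 growth signal genes summed to 2336, 2590, 2285 and 2532 CPM in members and 4204, 4599, 3957 and 4191 CPM in comparison cells. Among them *Igf1*, a growth factor of the mesenchyme, and the binding protein *Igfbp5* were lower in members of every sample (log2 ratios of -1.53 to -0.93 and -1.65 to -0.77), and *Fgfr2*, an FGF receptor, differed by 0.06 to 0.44. Of the genes that averaged 50 CPM or more in comparison cells, the 10 that were lowest in members of every sample, a list chosen after their values were seen, were led by the matrix proteoglycan genes *Ogn* (72.1, 101, 94.8 and 73.1 CPM against 340, 592, 560 and 367 CPM) and *Aspn*, and included *Lox*, the collagen cross-linking oxidase, the collagen gene *Col27a1*, the microfibril gene *Mfap4* and the prepuce marker *Akap12*.

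To find the tissue of origin, the mesenchymal cells were clustered without 445 cell cycle genes and without 642 genes that differed between the genotypes, and members were counted in each of 23 clusters. Members came from all of them, but at very unequal shares. The Tac1/Tfap2c cluster, distal glans-like by its markers, held 591 members, the largest number. It was followed by Adh7/Filip1 (393), Coch/Meox2 (353), Itih5/Irx1 (310), Ecrg4/Sox9 (222, corpus cavernosum-like) and Sostdc1/Col6a6 (206), where a cluster without a cell type is given by its leading genes. In the Runx2/Dlx6os1 cluster, osteogenic-like, 8 of 580 cells were members, and in the Cthrc1/Ccn3 cluster, general prepuce-like, 14 of 851. The clusters led by mast cell and granulocyte genes (Cma1/S100a9, also enriched in epithelial markers), by pericyte genes (Rgs5/Ccl11) and by glial genes held 43, 33 and 6 members. The share of cycling cells in the ablated penises and in the controls differed by -4.88 points without these 3 clusters and by -4.87 points with the clusters at the same weight in every sample.

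The lower share of cycling cells in ablated penises was concentrated in some clusters. Of 18 clusters with at least 50 cells in every sample, both DTA- samples lay above both DTA+ samples in 9 (50%) and the reverse held in 2 (11.1%). With edgeR's quasi-likelihood test on the numbers of members, with the cells of the cluster as offset and Benjamini-Hochberg adjustment, the share fell in 6 of 18 clusters (33.3%) and rose in 0 (no cluster with a higher share reached an unadjusted p under 0.05). This test was chosen after the shares had been seen. In the Coch/Meox2, Tac1/Tfap2c and Thbd/Ptgis clusters its SE was no larger than the counting error of the members. These small p-values therefore say little about the spread between samples of a genotype. The Coch/Meox2 cluster, in which *Wif1*, a secreted Wnt inhibitor, is a leading gene, held 21.1% and 25.6% cycling cells in the DTA- samples and 6.0% and 5.74% in the DTA+ samples, a log2 fold change of -1.98 ± 0.19 (SE, adjusted p = 2.90e-11, edgeR). In the Tac1/Tfap2c cluster, whose leading genes include the neuropeptide gene *Tac1* and the growth factor gene *Fgf9*, the shares were 29.1% and 31.7% against 14.6% and 12.6% (-1.18 ± 0.12, adjusted p = 2.92e-11, edgeR). In the Thbd/Ptgis cluster they were 4.70% and 4.25% against 0.529% and 0.235%, which rests on 46 members (-3.49 ± 0.71, adjusted p = 1.2e-04, edgeR). The share also fell in the Ecrg4/Sox9 (9.89% and 11.7% against 5.10% and 6.01%), Msx2/Alx1 (7.16% and 8.38% against 3.40% and 2.79%) and Hand2os1/Prss35 (7.56% and 6.34% against 2.59% and 1.92%) clusters, with adjusted p of 0.00202, 0.0219 and 0.0219 (edgeR). After reduction to 1000 UMIs these last 3 had adjusted p of 0.404, 0.264 and 0.122 (edgeR), while the first 3 still passed. In the last 3 clusters the shares were then 3.14% and 5.78% against 2.09% and 3.20% in Ecrg4/Sox9, where the groups overlapped, 4.0% and 4.57% against 2.27% and 1.24% in Msx2/Alx1, and 5.23% and 3.52% against 1.72% and 0.321% in Hand2os1/Prss35. The groups did not overlap in Msx2/Alx1 and Hand2os1/Prss35.

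The Itih5/Irx1 and Adh7/Filip1 clusters held about as many cycling cells in either genotype. In Itih5/Irx1 the shares were 21.2%, 20.4%, 21.9% and 21.2% (log2 fold change 0.07 ± 0.20), and in Adh7/Filip1 they were 21.7%, 18.4%, 21.0% and 17.8% (-0.04 ± 0.16). Neither passed the test (adjusted p = 0.831 and 0.846, edgeR), and the 4 samples lay close together. In the general prepuce-like Agtr2/Kitl cluster the share was higher in both DTA+ samples, at 5.0% and 5.67% against 6.85% and 9.86%. It did not pass the test (adjusted p = 0.517, edgeR). Measured against the overall share of each sample, the Coch/Meox2, Tac1/Tfap2c and Thbd/Ptgis clusters fell further than the mesenchyme as a whole, and Adh7/Filip1 and Itih5/Irx1 rose relative to it, which made 5 of 18 clusters (27.8%) with an adjusted p under 0.05 (edgeR). The clusters that gave the members also differed between the genotypes. Coch/Meox2 gave 15.4% and 17.8% of members in the DTA- samples and 6.89% and 4.59% in the DTA+ samples, and Adh7/Filip1 gave 10.6% and 8.35% against 23.3% and 18.9%. Itih5/Irx1 was uneven between samples of 1 genotype (6.09%, 11.7%, 22.3% and 4.78%). In Coch/Meox2 cells of at least 5000 UMIs the groups overlapped, with 28.6% and 47.2% cycling cells against 20.2% and 31.7%. In Tac1/Tfap2c cells of 3000 to 5000 UMIs they overlapped as well, with 16.4% and 27.0% against 19.5% and 15.8%. The cells of both clusters were shallower in the DTA+ samples, with a median of 5598 and 4618 against 3355.5 and 3526 UMIs in Coch/Meox2 and of 4242 and 3536 against 2899 and 2986 UMIs in Tac1/Tfap2c. In Adh7/Filip1 and Itih5/Irx1 the groups overlapped in depth (5881.5, 4153, 4906.5 and 5023 UMIs, and 6244, 4562, 5689 and 5917.5 UMIs). The part of depth in the difference between clusters was not tested beyond the reduction to 1000 UMIs. Among members of clusters with at least 100 members, the S phase leaning share ran from 15.4% (Gria2/Vsnl1) to 29.0% (Msx2/Alx1). In Msx2/Alx1 it was 35.3%, 27.3%, 13.3% and 33.3%, so the samples of 1 genotype differed widely.

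**Figure D3:**
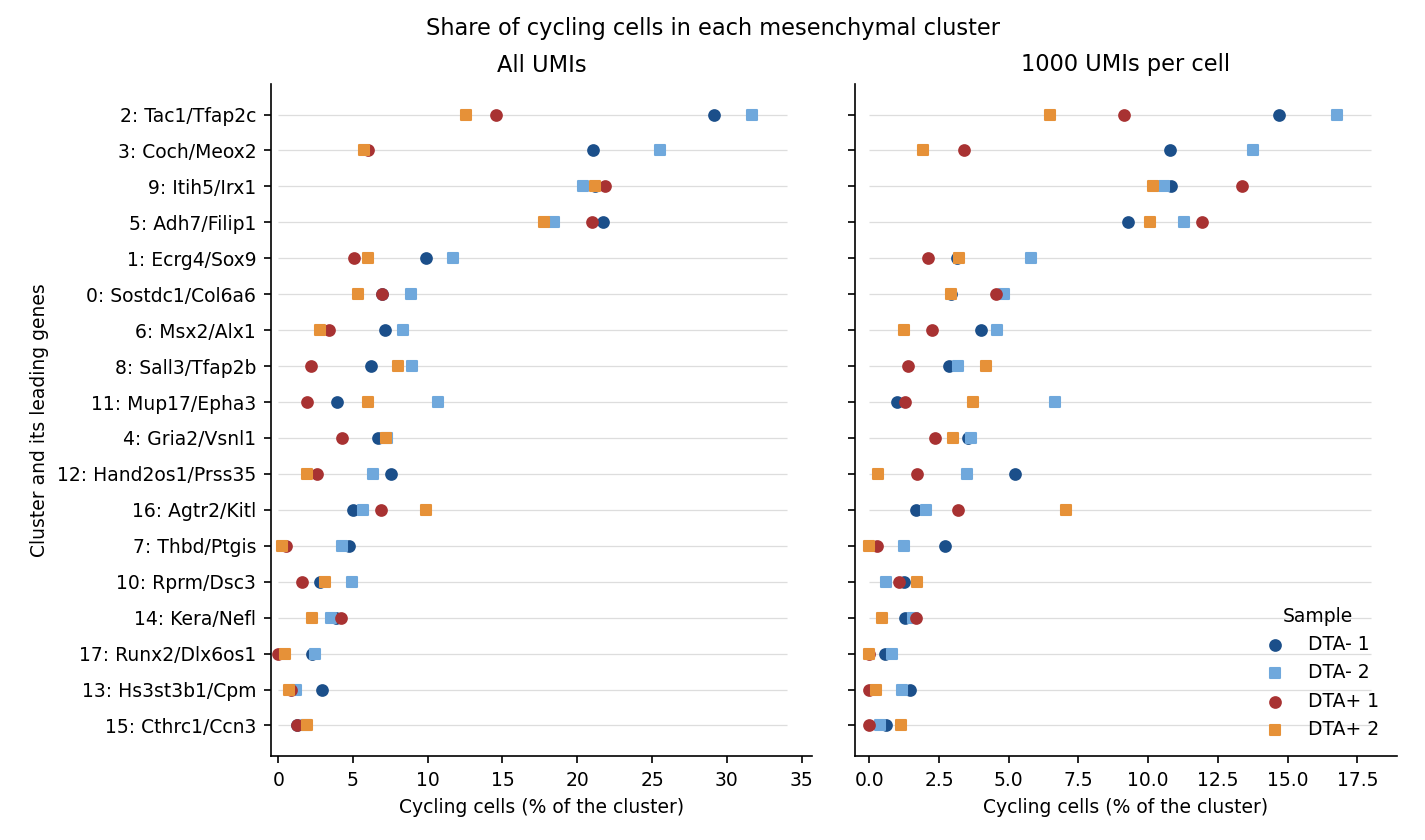
Percent of cells that were cycling in each of the 18 clusters with at least 50 cells in every sample, with all UMIs (left) and with each cell reduced to 1000 UMIs (right), as 1 point for each sample. In Tac1/Tfap2c and Coch/Meox2 both DTA+ samples lay below both DTA- samples in either panel, and in Itih5/Irx1 and Adh7/Filip1 the samples lay close together.

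To ask whether cells that did divide differed between the genotypes, UMIs were summed over the members of each sample (5050958, 5665883, 3493234 and 3133773 UMIs) and tested with edgeR. Of 11905 genes, 90 (0.756%) passed an adjusted p of 0.05, 57 of them higher (0.479%) and 33 lower (0.277%) in DTA+ samples, and 1197 had an unadjusted p under 0.05. The samples did not overlap for any of the 90, as for 20.5% (higher) and 20.9% (lower) of all genes tested. In the comparison cells, 177 of 15004 genes passed (1.18%), 80 of them higher (0.533%) and 97 lower (0.646%). Levels of single genes below are CPM after TMM scaling of the sums, unless stated otherwise.

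No gene of the cell cycle lists passed the test between the genotypes in members, against 0.756% of all genes tested. This held for 43 S phase genes (median log2 fold change 0.02), 46 G2 and mitosis genes (0.10), 11 of origin licensing (0.06), 16 of DNA synthesis (-0.06), 10 of G2 entry (0.11), 19 of the spindle and kinetochore (0.11), 8 of mitotic exit (0.17) and 21 cyclins, CDKs and E2F factors (-0.00), beside a median of 0.00 over all genes tested. Lists of this size would hold few calls at the share of all genes, so their counts of 0 show no difference from other genes. Members were also chosen by cycle genes, so similar levels of these lists in the genotypes follow in part from the rule. In the comparison cells the medians of the S phase and origin licensing lists were -0.35 and -0.49. *Pcna*, the replication clamp, stood at 309, 301, 304 and 299 CPM (-0.02 ± 0.12, SE). *Ccnd1*, which links growth signals to the cycle, stood at 127, 123, 151 and 97.2 CPM (0.00 ± 0.19). Of 12 CDK inhibitor and quiescence genes tested and 12 p53 targets tested, 0 passed in either direction. The p53 target and CDK inhibitor *Cdkn1a* stood at 36.7, 92.2, 86.6 and 33.7 CPM, with as much spread within a genotype as between them.

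The genotype itself was visible in the members. The *tdTomato* reporter, which the study's methods place in the mice used for sequencing, stood at 0 CPM in both DTA- samples. In the DTA+ samples it stood at 76.8 and 58.3 CPM. Without TMM scaling these levels were 76.4 and 59.7 CPM, at least 121-fold higher against a floor of 3 UMIs per library (0.594 and 0.529 CPM). Comparison cells held 87.9 and 70.4 CPM of it in the DTA+ samples and 0 CPM in the DTA- samples, also without TMM scaling. The study's methods describe leaky *tdTomato* transcripts at a low level in most cells. *Gt(ROSA)26Sor*, the transcript of the *Rosa26* locus (chr6:113067428-113077333, minus strand, GRCm38), stood at 18 and 20.1 CPM in the DTA- samples and 80.8 and 78.9 CPM in the DTA+ samples (log2 fold change 2.06 ± 0.17, adjusted p = 2.1e-04, edgeR). Both inserted alleles lie in this locus, and their part in its rise was not tested. *Nr5a1* had no UMI in any member, which allows a share of members with a UMI of up to 0.389%, 0.313%, 0.530% and 0.574%.

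Among genes that rose, *Adh7*, an alcohol dehydrogenase that oxidizes retinol, stood at 8.91 and 11.2 against 32.5 and 42.1 CPM (1.88 ± 0.22). *Akap12*, a scaffold of protein kinase A and a marker of the general prepuce (chr10:4266380-4359470, plus strand), stood at 40.3 and 57.1 against 155 and 128 CPM (1.53 ± 0.19). *Palld*, an actin-bundling protein, stood at 105 and 129 against 293 and 330 CPM (1.41 ± 0.15). All 3 had an adjusted p under 0.05 (2.3e-03, 2.3e-03 and 9.9e-04, edgeR) and groups that did not overlap. *Stmn2*, which destabilizes microtubules, *Cdh6*, a cadherin, *Zfp536*, a zinc finger repressor, and *Lix1* rose by log2 fold changes of 1.38 to 1.54. *Pde10a*, a cyclic nucleotide phosphodiesterase, *Gucy1a1*, a subunit of the nitric oxide receptor, and *Ddah1*, which removes an inhibitor of nitric oxide synthesis, rose by 1.31 to 1.35, with the 2 DTA+ samples further apart than for the other genes (*Ddah1* at 21.9, 26, 74.5 and 43.9 CPM).

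Among genes that fell, *Fkbp5*, a co-chaperone of steroid receptors that glucocorticoids induce (chr17:28399094-28517527, minus strand), stood at 69.3 and 81.5 CPM in the DTA- samples and at 29.0 and 26.2 CPM in the DTA+ samples (-1.45 ± 0.18, adjusted p = 2.3e-03, edgeR). *Igfbp2*, which binds insulin-like growth factors (chr1:72824503-72852474, plus strand), stood at 596 and 563 against 202 and 292 CPM (-1.23 ± 0.16, adjusted p = 3.1e-03, edgeR). *Meox2*, a homeobox transcription factor (chr12:37108540-37179534, plus strand), stood at 99.5 and 111 against 36.8 and 33.4 CPM (-1.59 ± 0.16, adjusted p = 9.9e-04, edgeR), and *Mgp*, an inhibitor of calcification, at 255 and 233 against 91.5 and 106 CPM (-1.30 ± 0.14). *Tpd52l1*, *Rnf128* (a ubiquitin ligase), *Ankrd29*, *Gsto1* (a glutathione transferase), *Ahcyl2* and *Mapk13* (a p38 kinase) fell by 1.00 to 1.75 on the log2 scale. The globin gene *Hbb-bt* stood at 406 and 502 against 176 and 132 CPM (-1.56 ± 0.16), beside the erythroid list whose levels followed the libraries as given with the markers, and its reads cannot be fully separated from the near-identical *Hbb-bs*. The part of free red cell RNA in it was not tested. After reduction to 1000 UMIs, 20 genes passed the test over all members. *Palld*, *Cdh6*, *Fkbp5*, *Akap12*, *Igfbp2*, *Mgp* and *Tpd52l1* were among them, whereas *Meox2* (adjusted p = 0.124, edgeR), *Adh7* (0.0757) and *Lix1* (0.104) did not pass.

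**Figure D4:**
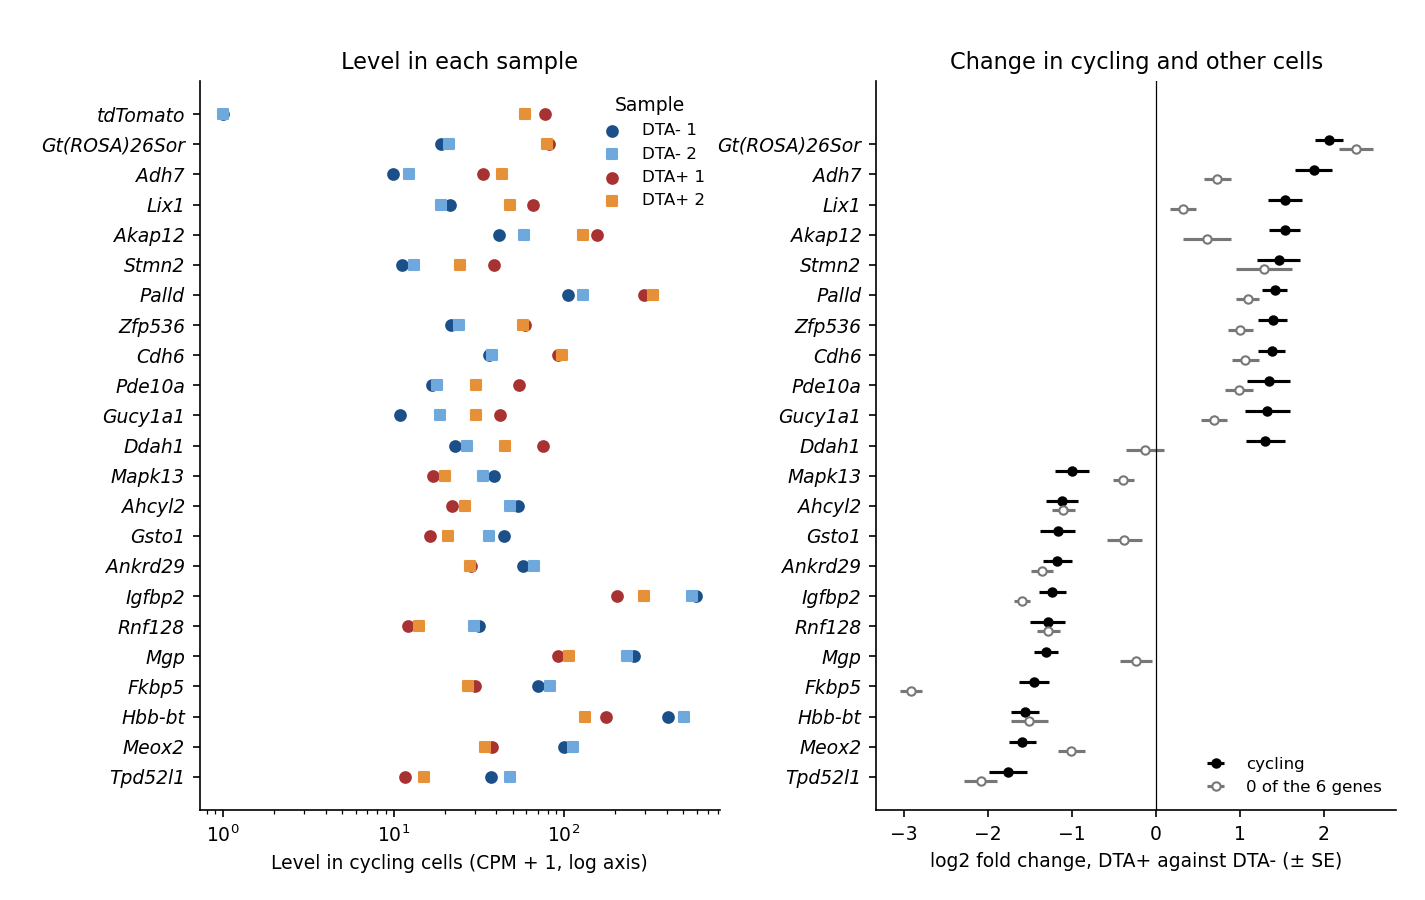
Left, level in cycling cells of each sample (CPM + 1 after TMM scaling, log axis) for the 12 genes with the largest rise and 11 with the largest fall. Right, log2 fold change with SE in cycling cells (filled) and in comparison cells (open) for 22 of them, *tdTomato* left out since its DTA- samples held 0 UMIs. For each gene both DTA+ samples lay on the same side of both DTA- samples.

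Called genes were found in the lists of hormone response, of the prepuce and of growth signals, against 0.479% of all genes tested higher and 0.277% lower. Of 17 glucocorticoid-induced genes tested, 2 fell (*Fkbp5* and *Sult1a1*) and 0 rose, with a median log2 fold change of -0.61. *Sult1a1*, a sulfotransferase, had 13 and 20 UMIs against 0 and 0, at least 3.36-fold lower against 3 UMIs per library. Among the androgen-related genes, *Esr1*, the estrogen receptor, rose (1.82 and 1.07 against 10.6 and 14.96 CPM) and *Srd5a2* fell. *Srd5a2*, which makes dihydrotestosterone, stood at 14.6 and 30.5 against 6.04 and 5.92 CPM. Of 7 general prepuce markers, *Akap12* and *Dpt* (18.8 and 33.0 against 58.7 and 57.4 CPM) rose, with a median of 1.15 over the list. Of 6 subdermal prepuce markers tested, *Ly6a* fell, with 14 and 43 UMIs in the DTA- samples and 0 and 1 in the DTA+ samples, and the median of the list was -0.12. Of 19 growth signal genes tested, *Igfbp2* fell and none rose. *Igf1* stood at 54.3, 64.2, 44.3 and 38.3 CPM (adjusted p = 0.279, edgeR) and *Igf2* at 179, 259, 297 and 240 CPM (adjusted p = 0.616, edgeR). Of the mesenchyme markers other than *Col1a1*, which the rule uses, and of 18 genes of dissociation stress, 0 passed. The stress list, led by *Fos*, summed to 9222, 16987, 17301 and 12086 CPM without TMM scaling.

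Since the tissue that gave the members differed between the genotypes, changes were also read at equal composition. With the same number of members drawn from each cluster in every sample (342 members per sample), 132 genes passed, 52 of them among the 90. *Meox2* then had a log2 fold change of -0.60 (adjusted p = 0.139, edgeR) and *Hbb-bt* of -0.89 (adjusted p = 0.0526, edgeR), and *Mgp* was reduced to -0.59 (adjusted p = 0.0345, edgeR). *Fkbp5* (-1.52), *Igfbp2* (-1.27) and *Tpd52l1* (-2.00) were as large as before. Of the risen genes, *Adh7* and *Akap12* were reduced to 1.06 and 1.01 (adjusted p = 0.0248 and 0.00905, edgeR), *Gucy1a1* and *Pde10a* did not pass (0.28 and 0.76, adjusted p = 0.762 and 0.0924, edgeR), and *Stmn2* had 1.57 (adjusted p = 9.99e-04, edgeR). Values in single clusters are given here without tests and without TMM scaling. Within the members of Coch/Meox2, *Meox2* stood at 407 and 382 CPM in the DTA- samples and at 337 and 340 CPM in the DTA+ samples, and in members of the other 4 clusters examined it stood at 29.3 CPM or less. *Fkbp5* in the members of Adh7/Filip1 stood at 82.4 and 110 against 32.4 and 35.3 CPM, while in those of Ecrg4/Sox9 it stood at 18.1 and 38.8 against 20.2 and 28.7 CPM and the groups overlapped. *Igfbp2* stood in the members of Ecrg4/Sox9 at 1248 and 1084 against 579 and 581 CPM, and in those of Tac1/Tfap2c at 172 and 134 against 98.5 and 194 CPM, where the groups overlapped. *Stmn2* stood in the members of Adh7/Filip1 at 20.1 and 21.2 against 77.9 and 38.3 CPM, and the other way round in those of Itih5/Irx1, at 37.8 and 13.1 against 1.09 and 0 CPM, from 12, 9, 1 and 0 UMIs. The leading genes of clusters also appear among the 90: 6 of the 10 leading genes of Adh7/Filip1 and 5 of 10 of Gria2/Vsnl1 rose, and 3 of the 9 tested of Coch/Meox2 fell (*Cpxm2*, *Meox2* and *Shisal1*).

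**Figure D5:**
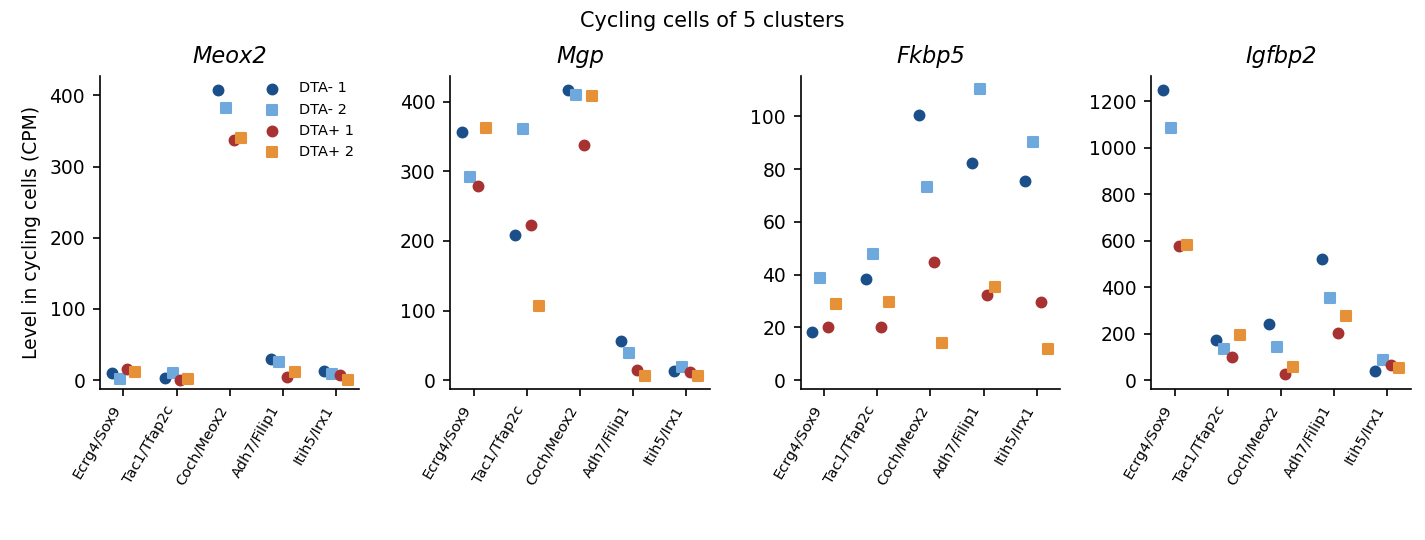
Level (CPM of the members' UMIs in a cluster) of *Meox2*, *Mgp*, *Fkbp5* and *Igfbp2* in cycling cells of 5 clusters, as 1 point for each sample. *Meox2* was high in the Coch/Meox2 members of either genotype, whereas *Fkbp5* was lower in both DTA+ samples in the members of 4 clusters and overlapped in Ecrg4/Sox9.

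Finally, the response of cycling cells was compared with that of mesenchymal cells with none of the 6 genes, in 1 model with the sample, the state and the genotype by state term. This term passed an adjusted p of 0.05 (edgeR) for 279 of 14614 genes (1.91%), with 182 positive (1.25%) and 97 negative (0.664%). It was positive for *Fkbp5* (1.44 ± 0.16, adjusted p = 1.0e-04), which fell by 2.92 on the log2 scale in comparison cells (82.5, 82.3, 10.6 and 11.3 CPM) and by 1.45 in members, so that the fall was smaller in members. It was negative for *Mgp* (-1.12 ± 0.13), which changed by -0.24 in comparison cells (390, 263, 293 and 261 CPM). *Akap12*, *Lix1* and *Adh7* had positive terms (0.89, 1.19 and 1.13) and smaller changes in comparison cells (0.61, 0.32 and 0.73). At 1000 UMIs per cell these terms were 0.66, 1.03 and 1.36 and did not pass (adjusted p = 0.282, 0.261 and 0.318, edgeR). *Tac1* had a term of -1.20 ± 0.10 and stood, without TMM scaling, at 84.9, 40.6, 115 and 215 CPM in comparison cells and at 167, 86.3, 93.0 and 202 CPM in members, with wide spread within each genotype. Of 46 G2 and mitosis genes, 0 had a positive term and 1 a negative term (*Cenpa*, -0.47), against 0.664% of all genes tested negative. At 1000 UMIs per cell the term of *Cenpa* was -0.55 and did not pass (adjusted p = 0.395, edgeR). Of 43 S phase genes, 6 had a positive term (*Mcm6*, *Gins2*, *Brip1*, *Rrm2*, *Mcm4* and *Chaf1b*), and so had 4 of the 11 origin licensing genes (*Mcm3* and 3 of the same genes), against 1.25% of all genes tested. The log2 fold changes of these 7 genes were -0.24 to 0.40 in members and -1.20 to -0.35 in comparison cells. Both classes were chosen by cycle genes, so the terms of such genes depend in part on that choice. None of these 7 genes passed at 1000 UMIs per cell (adjusted p of 0.371 to 0.853, edgeR), although the terms were then 0.28 for *Mcm6*, 0.53 for *Rrm2* and 0.56 to 1.23 for the other 5, against 0.52, 0.70 and 0.47 to 1.04 with all UMIs, and with 1 library left out only *Rrm2* and *Mcm3* still did. Of 8 distal glans markers, 4 had a negative term (*Alx4*, *Msx1*, *Tac1* and *Msx2*), beside the smaller share of cycling cells in the distal glans-like clusters. At 1000 UMIs per cell *Alx4* and *Msx2* did not pass (adjusted p of 0.132 and 0.461, edgeR). Their terms were then -0.74 and -0.54, against -0.67 and -0.63 with all UMIs. Of 19 glucocorticoid-induced genes tested, 5 had a positive term (*Mt2*, *Mt1*, *Cebpd*, *Fkbp5* and *Klf9*). None of the 5 passed at 1000 UMIs per cell (adjusted p of 0.0569 to 0.939, edgeR), and *Mt2* and *Klf9* also did not pass with 1 library left out (adjusted p up to 0.121 and 0.252, edgeR). At 1000 UMIs the term of *Mt2* was 0.92, against 1.99 with all UMIs, while those of *Mt1* (1.40 against 1.34), *Cebpd* (0.97 against 0.76) and *Klf9* (0.69 against 0.55) were as large as before. Among the mesenchyme markers, leaving out *Col1a1*, which the rule uses, *Col3a1*, *Dcn* and *Col1a2* had positive terms of 0.62, 0.57 and 0.50, which also passed at 1000 UMIs per cell. Their log2 fold changes were -0.01, 0.86 and 0.38 in members and -0.66, 0.24 and -0.18 in comparison cells. None of these changes passed in either class. The terms of *Twist2* (0.38), *Vcan* (0.32) and *Prrx1* (-0.39) did not pass at 1000 UMIs per cell (adjusted p of 0.271, 0.193 and 0.282, edgeR). They were then 0.44, 0.35 and -0.35, about as large as with all UMIs. With every cell reduced to 1000 UMIs the term of *Fkbp5* was 1.41 (adjusted p = 0.0569, edgeR) and that of *Mgp* -1.11 (adjusted p = 0.00125, edgeR). The part of composition in these terms was not tested.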

How the data were processed

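The authors dissociated penises of embryonic day 16.5, made 10x 3′ libraries and sequenced them together. Reads were aligned to mm10 with added reporter sequences by Cell Ranger 4.0.0, per the labels (the methods name another version). The deposited matrices hold UMI counts, not normalized. 0 columns of per-sample values were left unused. Members and gene lists were chosen with earlier results of these data known.

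UMIs were summed per sample and class and tested with edgeR 4.0.16 (quasi-likelihood, TMM, filterByExpr, Benjamini-Hochberg adjustment) in R 4.3.3, with DESeq2 1.42.0 as an alternative. The functions were tested on simulated data. Cells were clustered with scanpy 1.11.5 in Python 3.11.15 (2000 variable genes, 30 components, 20 neighbours, Leiden resolution 1). A cluster was called X-like when at least 3 markers of a list were enriched, more than of any other list. A gene of that list also had to be among the 10 leading genes of the cluster, so some clusters with 3 or more enriched markers stayed unnamed. Doublets were kept, and as an alternative the highest Scrublet scores, at 0.8% per 1000 barcodes, were left out. Shares were compared by exact permutation over samples, and intervals cover counting error only. Named genes were the rule and list genes (the most abundant and each one called), the 12 that rose and the 12 that fell most among called genes with at least 20 CPM and no overlap, the 15 leading genes of members, and the 6 largest genotype by state terms. Some of these genes are not reported here. The clusters shown gene by gene, the test of shares per cluster, the equal composition, the UMI bins, the crossed pairing and the analyses without an upper UMI limit or without other cell types were chosen after seeing the data. Other gene coordinates are GENCODE's on GRCm38. The same replicate number did not pair samples, since deviations from the group means correlated at -0.20.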

Additional observations from a re-analysis of the deposited data

Results flagged for a closer look

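Relative to the overall share of cycling cells in each sample, 5 clusters differed between the genotypes. The log2 change was -0.39 in Tac1/Tfap2c, -1.23 in Coch/Meox2, -2.76 in Thbd/Ptgis, 0.72 in Adh7/Filip1 and 0.79 in Itih5/Irx1 (edgeR, adjusted p of 0.0133, 0.00268, 0.0133, 0.0133 and 0.0133). The SEs of these changes were about as small as the counting error of the members, so the p-values say little about spread between samples.

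The response to the genotype differed between cycling and other mesenchymal cells for 279 genes, by the test of that difference, and the terms of the following 5 belonged to genes of low level. *Psca* had a term of -6.90 with 0.594, 39.2, 0.573 and 0.319 CPM in members, so that 1 library, the second DTA- sample, decided it. *Krt7*, a keratin of simple epithelia, had a term of -3.93 with 0.594, 7.41, 0.573 and 0.638 CPM in members, again high in that library alone. *Mcpt4*, a mast cell protease, had a term of -2.97 with 1.78, 25.6, 2.29 and 1.28 CPM in members and 0.976, 33.0, 22 and 13.1 CPM in comparison cells. *Krt15*, a keratin of basal epithelia, had a term of -2.08 with 6.53, 9.88, 3.72 and 4.79 CPM in members. *Scube2* had a term of 2.18 with 0.99, 2.12, 5.73 and 2.553 CPM in members, from 5, 12, 20 and 8 UMIs, and 3.42, 4.98, 3.42 and 1.54 CPM in comparison cells. Leaving out 1 library raised the adjusted p (edgeR) to as much as 0.750 for *Psca*, 0.856 for *Krt7* and 0.151 for *Scube2*. At 1000 UMIs per cell *Krt15* and *Mcpt4* did not pass (adjusted p = 0.583 and 0.132, edgeR). Their terms were then -2.44 and -3.66, no smaller than with all UMIs. These levels are without TMM scaling.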

How the results depend on the processing

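The share of cycling cells was lower in DTA+ samples under every alternative run, by -2.15 points (1000 UMIs per cell) to -6.68 points (no upper UMI limit) and by -4.11 to -5.69 points with 1 library left out. The difference in S phase leaning changed sign with an upper limit of 7500 UMIs (0.12 points) and lay between -1.57 and 0.90 points with 1 library left out (0.90 without DTA- replicate 1 and 0.47 without DTA+ replicate 1), so no direction can be given. The number of clusters in which both DTA- samples lay above both DTA+ samples was 7 to 13 under the alternatives.

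The 90 genes called between the genotypes became 235 with edgeR's likelihood ratio test, 422 with no filter on low counts, 32 with an upper limit of 7500 UMIs, 20 with 1000 UMIs per cell, 56 with at least 4 of the 6 genes, and 117 to 360 with 1 library left out. DESeq2 called 73. The 279 genes of the genotype by state term became 458 with the likelihood ratio test, 558 with no filter, 45 with 1000 UMIs per cell, and 197 to 608 with 1 library left out. Of 368 tests of named genes under alternatives, 321 kept their side of the threshold and 47 did not, and none changed sign. *Gucy1a1* was called in 8 and *Mapk13* in 5 of 16 settings. The Ecrg4/Sox9, Msx2/Alx1 and Hand2os1/Prss35 clusters also did not pass without either DTA- library. A fit with 1 library left out keeps 1 sample of that genotype, so its spread comes from the other genotype alone. Calls kept, gained or lost in such fits support no conclusion. The causes were not tested.

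With the replicate number as a block, 83 genes passed, 71 of them among the 90, and 288 genotype by state terms; the difference in share was -4.90 points (exact p = 0.5) and that in phase -0.33 points (exact p = 1.00). A crossed pairing called 618 genes. With 2 samples per group no exact test of a share can pass, and genes below a few CPM rest on few UMIs.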
